A study of Mus musculus with 13 samples.

Results

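The comparison described here is the effect of a conditional knockout (cKO) of Sox4 in immature Vγ2 γδ thymocytes, across all genes on the array. It uses 7 of the 13 arrays of the series: 4 labelled cKO and 3 labelled wild type (WT). The cells were sorted from the thymus of 2-week-old mice as positive for TCRδ and Vγ2 and high for HSA, with cells bearing CD4 or CD8 left out, and the sex of the mice is given as mixed. Titles are written in 2 styles, V2imm (WT replicates 4 and 5, cKO replicates 4 and 5) and immV2 (WT replicate 3, cKO replicates 3 and 4), and the style entered the fit as a covariate. The V2imm titles give the knockout without a gene name, and it was read as the Sox4 cKO of the series. The sources used here name neither the Cre driver, nor the deleted part of the gene, nor any pooling of animals. Nothing in the labels ties replicates to separate animals, so the p-values cover the spread among these samples alone, and that spread may be technical.

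Sox4 is a transcription factor with an HMG box, a domain that binds and bends DNA. In the thymus γδ cells leave the αβ pathway early, and many Vγ2 cells acquire the capacity to make IL-17 while still immature, a programme known to depend on HMG box factors such as Sox13 and on the factor Maf. HSA, encoded by Cd24a, is high on immature thymocytes and is lost as they mature.

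The 7 arrays were selected on the measured values of 3 genes, Cd4, Cd8a and Rag1, for which the array labelled WT replicate 5 of the immV2 style was left out. Cd4 and Cd8a encode the coreceptors of αβ thymocytes and Rag1 a subunit of the recombinase. In the array left out their log2 intensities were 12.65, 12.94 and 13.02. The 7 arrays kept had 6.71 to 7.36 for Cd4, 7.49 to 8.23 for Cd8a and 6.67 to 7.15 for Rag1. The WT arrays of the CD4 and CD8 double positive (DP) population averaged 12.43, 12.72 and 12.97, so the array left out had the values of DP cells. These 3 genes are given as a description, with no test. All differences below rest on that choice, since the 8 arrays as labelled gave Sox13 a difference of -0.09 (SE 0.71) and Etv5 one of 0.49.

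The sorted identity was seen in 4 genes that mark this population: the transcription factor genes Sox13, Maf and Etv5 and the Src-family kinase gene Blk. In the array left out they read 6.60 to 7.73 on the log2 scale. In the 7 arrays kept they read 8.74 to 12.20. The sorting marker gene Cd24a read 12.21, 12.02 and 11.67 in WT, and 12.31, 11.61, 10.38 and 9.46 in cKO, in the order V2imm WT 4 and 5, immV2 WT 3, V2imm cKO 4 and 5, immV2 cKO 3 and 4, which is kept below. The immV2 cKO arrays were thus the lowest in Cd24a, while V2imm cKO 4 was the highest of the 7. The cKO minus WT difference was -0.79 (SE 0.35), not passing (limma adjusted p = 1.0), with -0.15 within V2imm and -1.75 within immV2. In bulk samples such as these, fewer cells of a type and less RNA per cell cannot be told apart.

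**Figure D1:**
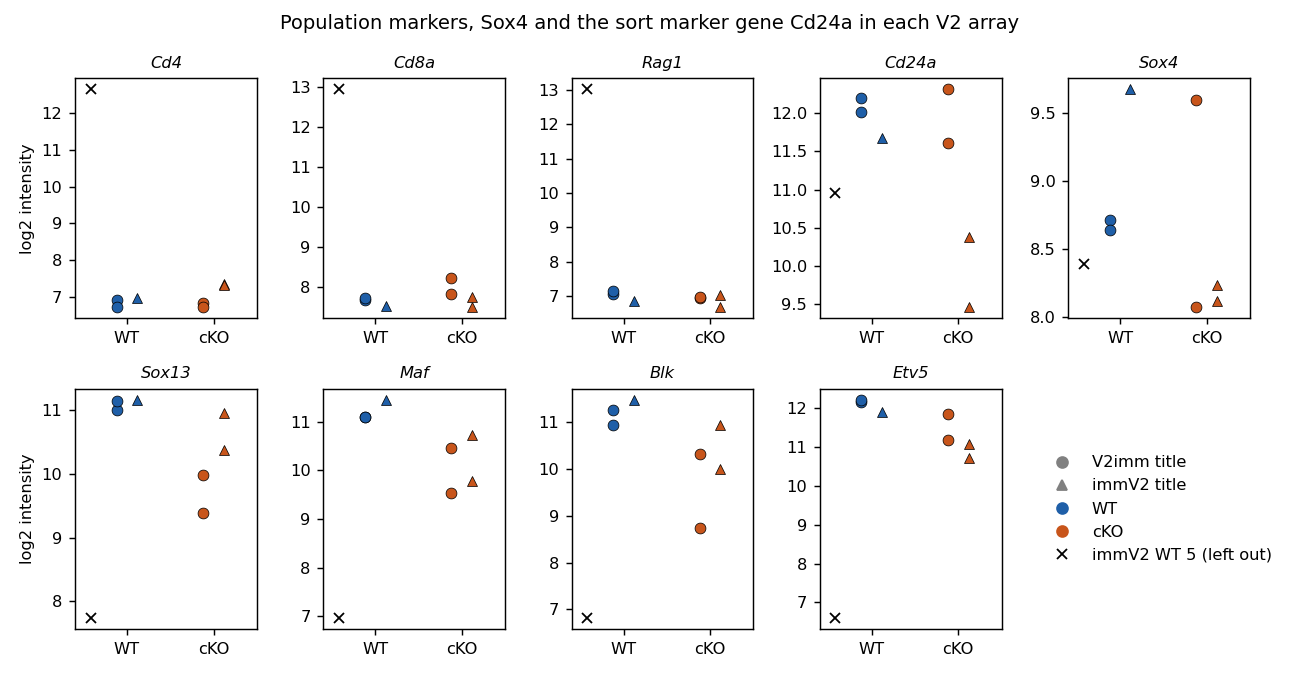
Log2 intensity (vertical axis) of marker genes in each V2 array, coloured by genotype, with circles for V2imm, triangles for immV2 and a cross for the array left out. Cd4, Cd8a and Rag1 lie at 12.65 to 13.02 in the array left out and at 6.67 to 8.23 in the 7 arrays kept.

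Array medians of the 7 arrays ran from 126.1 to 137.2 on the deposited intensity scale, and V2imm cKO 4 had a lower upper quartile (332.7) than the other cKO arrays (412.4 to 426.2). Xist, transcribed from the inactive X chromosome, read 11.82 to 11.96 on the log2 scale in V2imm WT 5 and both V2imm cKO arrays and 5.36 to 6.08 in the other 4. The Y-linked gene Uty read 8.98, 8.08 and 9.27 in WT and 7.29, 7.88, 8.78 and 8.73 in cKO. Within V2imm the Xist-high arrays were thus 1 of 2 WT and 2 of 2 cKO, and the part of sex in the differences was not tested. A fit with high Xist as a covariate gave the same differences as the fit without V2imm WT 4. That was the only V2imm array with low Xist, so such a fit cannot tell sex from that array.

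Sox4 itself did not separate the groups. Its log2 intensity read 8.71, 8.64 and 9.68 in WT, and 8.07, 9.60, 8.11 and 8.23 in cKO. V2imm cKO 5 lay among the WT arrays, and the other 3 cKO arrays lay below all WT arrays. The difference was -0.51 (SE 0.39, 95% interval -1.38 to 0.37, limma adjusted p = 1.0), with 0.16 within V2imm and -1.51 within immV2, which has 1 WT array. Where the Sox4 probe set lies relative to the deleted part is unknown here, so its level may be no check of the labels.

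No gene of 19752 passed in the comparison of cKO with WT (limma, Benjamini-Hochberg adjusted p below 0.05, 0.0% called), and the smallest adjusted p was 0.283. At an unadjusted p below 0.05 there were 365 genes higher in cKO (1.85%) and 304 lower (1.54%), 669 in all. That is fewer than a share of 0.05 of all genes, the share this threshold gives on average where no gene differs. Genes whose arrays did not overlap within either title style numbered 820 higher (4.15%) and 789 lower (3.99%). Across both styles together, every cKO array was above every WT array in 333 of the 19752 genes and below every WT array in 348. Of all 19752 genes, 10295 had a difference above 0 and 9457 one below. These counts and shares are the background for the gene groups and for the single genes without overlap below. Differences above 1 log2 unit were seen in 16 genes higher and 20 lower in cKO. The call rested on single arrays: 27 genes passed (20 higher, 7 lower) without V2imm cKO 4, and 42 (12 higher, 30 lower) without V2imm cKO 5. Among the genes named here, Btla, Serpinb1a, Rxfp1, 1700048O20Rik, Il17re, Bmp7, Slc7a8 and Ifngr1 passed in both of those fits. These genes were picked by smallest p over the same 7 arrays, and both fits share most arrays. Passing in both is thus no separate support. Leaving out any other single array gave 0 passing genes. Without V2imm WT 4 or V2imm WT 5, 480 and 434 genes had an unadjusted p below 0.05, fewer than the 669 over all 7 arrays.

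**Figure D2:**
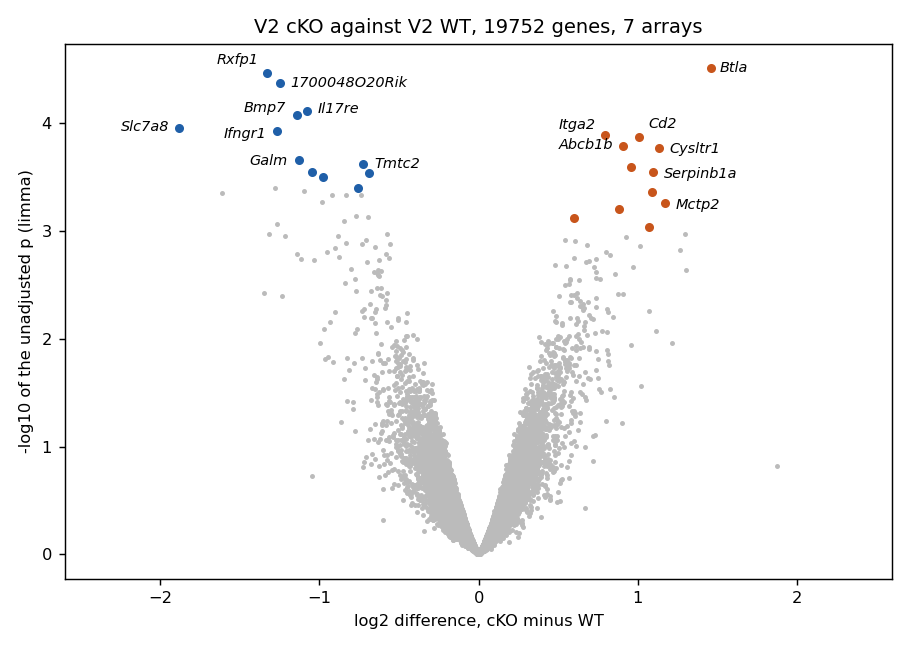
Log2 difference of cKO minus WT (horizontal axis) against the -log10 of the unadjusted limma p (vertical axis), 1 point per gene over 19752 genes and 7 arrays. Coloured points are the genes of smallest p named in the text, with Btla highest on the right and Rxfp1 highest on the left; no gene passed after adjustment.

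The genes of smallest p with higher values in cKO were led by receptors and adhesion molecules of lymphocytes. Btla encodes an inhibitory receptor of the immunoglobulin superfamily. On the log2 scale it read 7.28, 6.88 and 7.48 in WT, and 8.97, 8.57, 8.85 and 8.35 in cKO. Every cKO array was above every WT array, and the difference was 1.46 (SE 0.21), or 2.75-fold, with limma adjusted p = 0.283. It was 1.69 within V2imm and 1.12 within immV2. Cd2, an adhesion and costimulatory receptor gene, read 9.34, 9.09 and 9.87 in WT, and 10.01, 10.41, 10.92 and 10.89 in cKO. These arrays did not overlap either, with a difference of 1.01 (SE 0.17, adjusted p = 0.296 by limma), 0.99 within V2imm and 1.03 within immV2. Itga2, the collagen-binding integrin α2 gene, read 6.68 to 6.86 in WT and 7.41 to 7.82 in cKO (difference 0.79, SE 0.13). Cysltr1, a leukotriene receptor gene, read 6.13 to 6.35 in WT and 7.15 to 8.03 in cKO (difference 1.13, SE 0.20). Both sets of values were non-overlapping, as were those of Abcb1b, an efflux pump gene (difference 0.90), Serpinb1a, a protease inhibitor gene (1.09), and Flt3l, the ligand gene of the receptor Flt3 (1.09). Serpinb1a in WT, at 5.50 to 5.71, lay below the lower quartile of each of those arrays. Without V2imm cKO 5, Itga2 and Abcb1b also passed, and without V2imm cKO 4, Cd2, Cysltr1 and Flt3l did.

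On the lower side the smallest p belonged to Rxfp1, a relaxin receptor gene. It read 9.65 and 9.57 against 8.27 and 8.12 in V2imm, and 7.42 against 5.84 and 6.59 in immV2, lower in cKO within each style but not across them (difference -1.33, SE 0.19, limma adjusted p = 0.283). The RIKEN gene 1700048O20Rik came next, at 9.12, 8.94 and 8.50 in WT, and 7.46, 7.89, 7.65 and 7.16 in cKO, without overlap (difference -1.25, SE 0.19, adjusted p = 0.283 by limma). Il17re, the gene after these by p, encodes a receptor chain for IL-17C. On the log2 scale it read 8.23, 8.03 and 8.55 in WT, and 7.21, 7.29, 6.97 and 7.38 in cKO. Every cKO array was below every WT array, and the difference was -1.08 (SE 0.17), or 2.12-fold lower, with limma adjusted p = 0.296. It was -0.88 within V2imm and -1.38 within immV2. Over the 8 arrays as labelled Il17re gave -1.06 (SE 0.15). The array of DP profile read 8.26 in this gene, within the range of the WT arrays, so that fit is no check of the difference. Over the same 8 arrays 1700048O20Rik gave -0.875, Slc7a8 -1.26 and Rxfp1 -0.95, each smaller in size than over the 7. Bmp7, a secreted TGF-β family ligand gene, read 9.07, 9.04 and 9.23 in WT, and 7.505, 7.851, 8.32 and 8.55 in cKO, also without overlap (difference -1.14, SE 0.18).

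Slc7a8, an amino acid transporter gene, differed most in size among these genes. It read 11.25 and 11.29 in V2imm WT against 8.33 and 9.36 in V2imm cKO, and 8.18 in immV2 WT against 7.003 and 7.212 in immV2 cKO. The cKO arrays were below WT within each style, but the V2imm cKO arrays were above the immV2 WT array. The difference was -1.88 (SE 0.31), or 3.69-fold lower, with limma adjusted p = 0.296. Rxfp1 and Slc7a8 thus had the same layout. Ifngr1, which encodes the ligand-binding chain of the interferon-γ receptor, read 11.59, 11.37 and 12.36 in WT, and 9.70, 10.12, 11.38 and 11.73 in cKO. It was lower in cKO within each style (difference -1.27, SE 0.21), with overlap across styles.

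**Figure D3:**
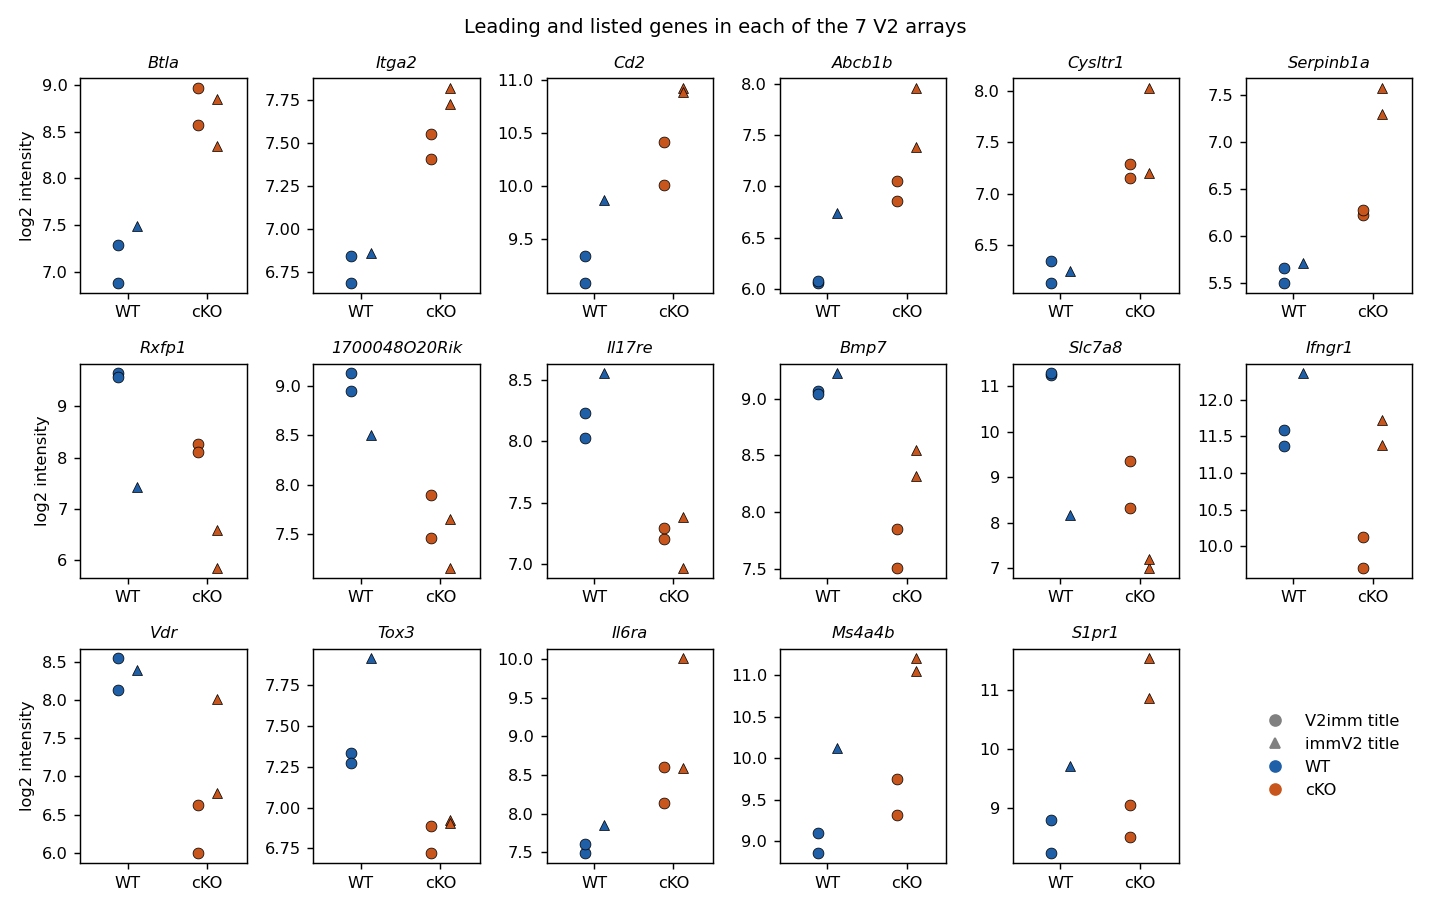
Log2 intensity (vertical axis) of genes of smallest p and of some listed genes in each of the 7 arrays, coloured by genotype, with circles for V2imm and triangles for immV2. Btla and Il17re do not overlap between genotypes in either style; Slc7a8 is lower in immV2 WT 3 (8.18) than in the V2imm WT arrays (11.25 and 11.29).

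Promoters of the leading genes are shown because Sox4 binds DNA directly. The windows are from RefSeq on GRCm38.p6, 250 bases before to 50 after the gene start, on the gene's strand and 5′ to 3′, for an immune receptor gene in each direction among the leading genes with a promoter in the table. Btla lies at chr16:45224087-45224386 (plus strand) and Il17re at chr6:113458521-113458820 (plus strand).
Btla: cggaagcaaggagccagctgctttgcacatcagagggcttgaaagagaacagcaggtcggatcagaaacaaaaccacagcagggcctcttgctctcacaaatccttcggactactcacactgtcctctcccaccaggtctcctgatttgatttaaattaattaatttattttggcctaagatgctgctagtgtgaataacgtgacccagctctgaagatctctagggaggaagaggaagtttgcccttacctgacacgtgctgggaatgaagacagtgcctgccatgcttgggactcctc
Il17re: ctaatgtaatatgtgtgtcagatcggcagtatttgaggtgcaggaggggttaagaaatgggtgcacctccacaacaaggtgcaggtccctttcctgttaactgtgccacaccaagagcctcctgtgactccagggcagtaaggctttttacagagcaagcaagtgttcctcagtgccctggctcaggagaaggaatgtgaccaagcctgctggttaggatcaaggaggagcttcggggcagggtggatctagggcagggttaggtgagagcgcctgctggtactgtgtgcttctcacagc
Neither holds ACAAAG or ACAATG, the HMG core motifs searched on both strands, so no letters are in capitals. Of the 24 leading genes 14 had a promoter in the table. A motif was found in 1 of 7 with higher values (Ifi208, an interferon-inducible gene) and 1 of 7 with lower values (Tmtc2), against 24.4% of 18961 promoters of tested genes. A match is only a description of these letters.

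Regulators of the IL-17 lineage were next. Of 14 measured genes 0 were called. At an unadjusted p below 0.05 there were 4 lower in cKO and 0 higher. The median difference was -0.02 (0.01 over all genes), and 7 genes lay on each side of 0. Without 1 array at a time this median ran from -0.13 to 0.04, and it was 0.17 over the 8 arrays as labelled. The 4 were Maf, Sox13, Etv5 and Blk, which also mark the population and were chosen with earlier results known. Maf read 11.10, 11.10 and 11.45 in WT, and 9.54, 10.46, 9.79 and 10.72 in cKO. Sox13 read 11.01, 11.15 and 11.16 in WT, and 9.38, 9.99, 10.37 and 10.96 in cKO. Blk read 10.94, 11.26 and 11.47 in WT, and 8.74, 10.31, 9.99 and 10.94 in cKO. Etv5, an ETS factor gene, read 12.16 to 12.20 in V2imm WT and 11.89 in immV2 WT, and 10.73 to 11.85 in cKO. In each of the 4 genes every cKO array was below every WT array, though Blk in immV2 cKO 4 was level with V2imm WT 4 to 2 decimals. Differences were -1.14 (SE 0.27) for Maf, -1.04 (SE 0.25) for Sox13, -1.35 (SE 0.36) for Blk and -0.80 (SE 0.20) for Etv5, with limma adjusted p from 0.577 to 0.765. Without V2imm cKO 5, Maf (-1.38) and Etv5 (-1.003) passed. V2imm cKO 4, the array with the low upper quartile, was the lowest of the 7 in Maf, Sox13 and Blk, and the part of that array's distribution was not tested.

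Cytokines and receptors of the IL-17 lineage went in both directions. Of 18 genes 16 were measured and 0 called, with 2 higher and 3 lower at an unadjusted p below 0.05 and a median of -0.11. Besides Il17re, the chemokine receptor gene Ccr6 was lower, at 7.96 and 7.57 against 6.71 and 5.91 in V2imm. In immV2 Ccr6 was 5.95 against 5.91 and 5.68, near the lower quartile of those arrays, so its difference of -0.94 (SE 0.28) came mostly from V2imm (-1.46, against -0.15 in immV2). Il17rb, an IL-25 receptor gene, read 9.46 to 9.93 in WT and 10.04 to 11.51 in cKO (difference 0.96, SE 0.31). Il18r1, the IL-18 receptor gene, read 5.97 to 6.70 in WT and 6.77 to 7.20 in cKO (difference 0.57, SE 0.15). The groups did not overlap in either gene, and limma adjusted p was 0.69 for Il18r1 and 1.0 for Il17rb.

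Of 22 measured HMG box factors other than Sox4, 8 were above 0 and 14 below, and 0 were called, 0 were higher and 4 lower at an unadjusted p below 0.05, and the median was -0.09 (0.006 over the 8 arrays as labelled). The 4 include Sox13, counted above as well. Arrays did not overlap within either style for 8 of 22 on the lower side and 1 on the higher side, against 3.99% and 4.15% of all genes. The same counts were 5 and 1 of the 14 IL-17 lineage regulators, and 5 and 3 of 31 early T lineage and E protein factors. Tox3, a TOX family gene, read 7.27 to 7.91 in WT and 6.72 to 6.92 in cKO (difference -0.70, SE 0.15, limma adjusted p = 0.474). Sox5, which has been described beside Sox13 in these cells, read 8.06 to 8.15 in WT and 7.38 to 7.92 in cKO (difference -0.52, SE 0.17). Both were without overlap between groups.

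Genes of the receptor complex and its proximal kinases had 1 higher and 4 lower of 28 measured at an unadjusted p below 0.05 (median -0.07). Besides Blk, the lower ones included Rasgrp1, a Ras activator gene (-0.37), and Cd247, the CD3ζ gene (-0.49), and the higher one was Ubash3b, a phosphatase gene (0.47). Receptor-induced and feedback genes had 0 higher and 1 lower of 25, with Tnfaip3, an inhibitor of NF-κB signalling, at -0.49. Their median was -0.03. Costimulatory and inhibitory receptors had 5 higher and 2 lower of 26, with a median of 0.23 (0.10 within V2imm, the same fit as without immV2 WT 3, and 0.40 within immV2). Beyond Btla and Cd2, Ctla4 differed by 0.48 and Cd48, a CD2 family ligand gene, by 0.62. The SLAM receptor gene Slamf1 differed by -0.68. No gene of these lists was called.

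Early T lineage and E protein factors had 7 of 31 measured genes above 0 and 24 below (median -0.15), with 3 higher and 4 lower at an unadjusted p below 0.05. Id2, an inhibitor of E proteins, read 9.97, 9.36 and 9.15 in WT, and 10.38, 11.03, 9.53 and 9.72 in cKO (difference 0.81, SE 0.23). It was higher within each style, with overlap across styles. Myb, a progenitor factor gene, differed by -0.51, Gata3, a T lineage factor gene, by -0.43 and Kit, a stem cell factor receptor gene, by -0.57. In Kit the arrays overlapped within V2imm.

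Maturation and egress genes had 5 higher and 1 lower of 21 measured at an unadjusted p below 0.05, and a median of 0.14. The lower one was Cd24a, given above. Il6ra, an IL-6 receptor gene, read 7.49 to 7.86 in WT and 8.14 to 10.005 in cKO, without overlap (difference 1.07, SE 0.31, limma adjusted p = 0.867). S1pr1, the receptor gene for egress from the thymus, was 8.79 and 8.23 against 8.50 and 9.05 in V2imm, and 9.71 against 10.86 and 11.54 in immV2 (difference 0.76, SE 0.30). Ms4a4b and Ms4a4c, genes of a membrane protein family of T cells, differed by 0.73 and 0.74, and without V2imm cKO 4 Ms4a4b passed. The list's median was 0.15 within V2imm and 0.38 within immV2, where Cd24a was lower. Whether the sorted cells differed in maturity was not tested.

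Interferon-stimulated genes had 24 of 27 measured genes above 0 and 3 below (median 0.24), with 5 higher and 0 lower at an unadjusted p below 0.05. Ifit1, an antiviral RNA-binding protein gene, read 7.45 and 7.34 against 7.90 and 7.69 in V2imm, and 8.26 against 9.61 and 8.89 in immV2 (difference 0.64, SE 0.21). Isg20, an exonuclease gene, read 8.71 to 8.96 in WT and 9.11 to 10.01 in cKO (difference 0.54, SE 0.19). Zbp1, a nucleic acid sensor gene, differed by 0.54. Usp18, a feedback inhibitor of interferon signalling, went the other way (-0.54, SE 0.24). The list's median was 0.10 within V2imm and 0.34 within immV2.

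Cytokine receptors had 3 higher and 2 lower of 33 measured at an unadjusted p below 0.05 (median -0.002). Beside Ifngr1, Il6ra and Il18r1, Il4ra, the IL-4 receptor gene, differed by 0.69 (SE 0.17). Chemokine receptors and migration genes had 4 higher and 3 lower of 22. Gpr174, a lysophosphatidylserine receptor gene, read 7.18 to 8.29 in WT and 8.48 to 9.52 in cKO, without overlap (difference 1.29, SE 0.29). Ptger4, a prostaglandin E receptor gene (-0.59), and Cx3cr1, the fractalkine receptor gene (-0.65), were without overlap on the lower side. Type 1 and cytotoxic genes had 1 higher and 1 lower of 21, with Klrd1, an NK receptor gene, at 0.63 and Gzma, the granzyme A gene, at -0.53. Klrd1 read 4.82 to 5.04 in WT and 6.03, 4.77, 5.72 and 6.005 in cKO, with most values below the lower quartile of their arrays. V2imm cKO 5 was below all WT arrays in Klrd1, and without that array Klrd1 passed. Integrins had 1 higher, Itga2, and 0 lower of 16. None of these genes passed over the 7 arrays.

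Transporters had 1 higher and 5 lower of 22 measured at an unadjusted p below 0.05, with a median of -0.03. Besides Slc7a8, Slc35d1, a nucleotide sugar transporter gene, read 9.35 to 9.59 in WT and 7.90 to 8.79 in cKO (difference -1.10, SE 0.22), and without V2imm cKO 5 it passed. The glutamine transporter gene Slc38a1 differed by -0.53 and the glucose transporter gene Slc2a3 by -0.67. Nuclear receptors had 0 higher and 2 lower of 20. The vitamin D receptor gene Vdr read 8.54, 8.13 and 8.39 in WT, and 6.62, 5.999, 6.78 and 8.005 in cKO. Its groups did not overlap, with immV2 cKO 4 closest to WT, and the difference was -1.61 (SE 0.32, limma adjusted p = 0.359). Nr1d1, the circadian repressor gene, differed by -0.65 (SE 0.15). Pparg, a lipid-sensing receptor gene, was 6.59 in immV2 WT against 8.15 and 9.34 in immV2 cKO, and 6.68 to 6.88 against 6.37 to 6.71 in V2imm, so its sign differed between the styles.

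Cell cycle and DNA replication genes had 0 higher and 0 lower of 38 measured at an unadjusted p below 0.05, with a median of -0.02. The same counts were 0 and 0 of 21 for ribosome biogenesis (median -0.004), 0 and 0 of 16 for sterol synthesis (0.04) and 0 and 0 of 19 for immediate early stress genes (0.03). Glycolysis genes had 2 higher and 1 lower of 15, with a median of 0.07 that was 0.39 without V2imm cKO 4 and -0.15 without V2imm cKO 5. Among Bcl2 family and death receptor genes 1 of 23 was higher, Fas (0.48), and 1 was lower, the pro-apoptotic Bcl2l11, at 8.75 to 8.90 in WT and 7.499 to 8.557 in cKO (difference -0.73, SE 0.21).

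MicroRNA genes were measured as precursor or primary transcripts, not as mature arms, and their mature sequences (RefSeq, GRCm38.p6) are given to show which share a seed, bases 2 to 8, in capitals.
miR-15b-5p: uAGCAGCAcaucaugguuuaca
miR-181a-5p: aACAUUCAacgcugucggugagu
miR-181b-5p: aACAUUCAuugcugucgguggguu
miR-181c-5p: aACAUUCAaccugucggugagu
The 3 miR-181 sequences share the seed ACAUUCA, and miR-15b-5p has AGCAGCA. Mir15b read 4.14 to 4.47 in WT and 4.69 to 6.11 in cKO, without overlap (difference 1.07, SE 0.23, limma adjusted p = 0.526). Most of these values lie below the lower quartile of their arrays (log2 5.73 to 6.09), so background can set how large the difference looks. Without V2imm cKO 5 it passed. Of 6 measured miR-181 genes 0 were higher and 1 lower at an unadjusted p below 0.05. Mir181b-1 read 9.16 to 9.61 in WT and 8.30 to 9.21 in cKO (difference -0.64, SE 0.24). Mir181b-2 was 8.05 and 7.37 against 8.69 and 7.71 in V2imm, and 7.57 against 6.06 and 5.50 in immV2, so its sign differed between the styles. Mir181a-2 (-0.22) and Mir181c (0.22) differed by less than 2 of their standard errors.

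**Figure D4:**
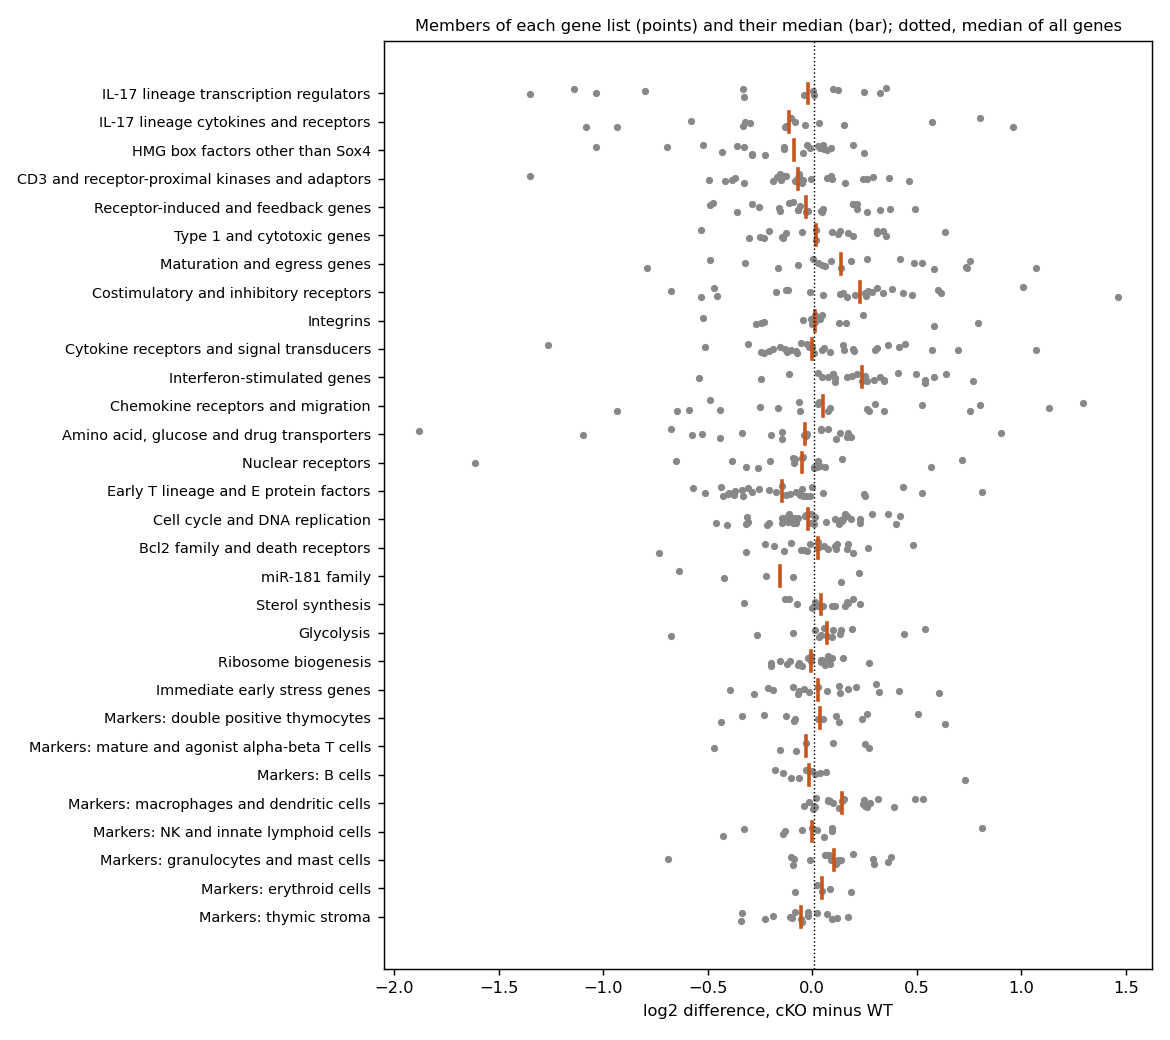
Log2 difference of cKO minus WT (horizontal axis) for every measured gene of each list, other than the sex-linked one, with the list's median as a bar and the median of all genes as a dotted line. Medians lie between -0.16 (miR-181 family) and 0.24 (interferon-stimulated genes), and the median over all genes is 0.01.

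Markers of other cells were measured in the same fit. DP thymocyte markers had a mean log2 level of 8.22 to 8.37 over the WT arrays and 8.08 to 8.46 over the cKO arrays. Of 14 genes 1 was higher, Cd8b1 (0.63), and 1 lower, Tcf12 (-0.34), at an unadjusted p below 0.05. Of 24 markers of macrophages and dendritic cells, 22 were above 0 and 2 below, with a median of 0.14 and mean levels of 6.50 to 7.23 in WT and 6.57 to 7.68 in cKO. Among them the protease gene Ctss differed by 0.53 (SE 0.22). Of 10 B cell markers 4 were above 0 and 6 below, with a median of -0.015, and 1 was higher at an unadjusted p below 0.05. That gene was the receptor component gene Cd79b, at 8.82, 8.67 and 9.24 in WT and 8.82, 9.42, 10.50 and 10.48 in cKO (difference 0.73, SE 0.23). Cd79b averaged 9.62 in the DP WT arrays. Blnk (-0.18), Cd22 (-0.14) and Ighm (-0.10) were among the B cell markers below 0. Without V2imm cKO 4, Cd79b passed. Of 18 markers of granulocytes and mast cells 13 were above 0 and 5 below, with a median of 0.10. At an unadjusted p below 0.05 they had 0 higher and 1 lower, Mmp9 (-0.69), which went against the side of most of the list. At that threshold NK and innate lymphoid cell markers had 1 higher and 1 lower of 11. The same counts were 0 and 0 of 7 for mature αβ T cells, 0 and 0 of 5 for erythroid cells, and 0 and 1 of 16 for stroma. The part of these markers in the gene differences above was not tested.

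The title styles were compared through the interaction of genotype and style. With limma 0 of 19752 genes passed, the smallest adjusted p was 0.28, and 294 genes had an unadjusted p below 0.05. The interaction rests on 1 WT array of the immV2 style. It was 61 genes without V2imm cKO 4 and 812 without V2imm cKO 5. Differences had the same sign in both styles in 10602 of 19752 genes. Of the genes given with values here, Sox4, Pparg, Mir181b-2, Mir181c, Cd4, Rag1 and the integrin gene Itgae had opposite signs in the styles. Whether the styles mark a batch is not stated in the labels.

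**Figure D5:**
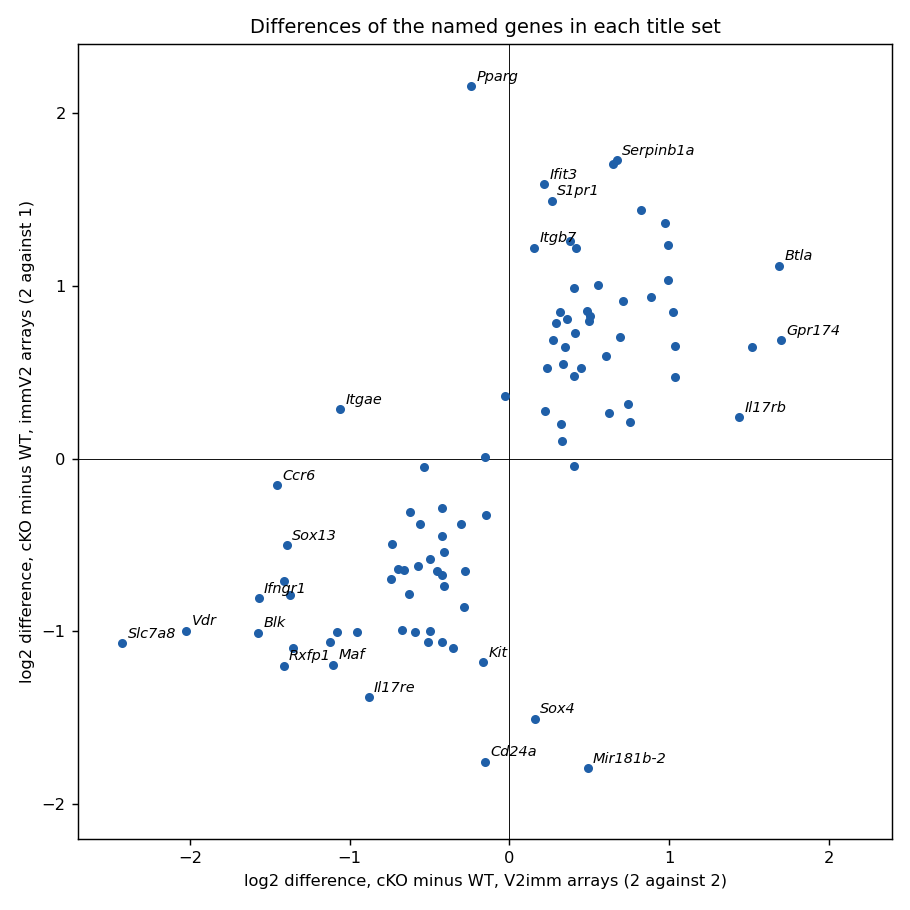
Log2 difference of cKO minus WT within the V2imm arrays (horizontal axis) against that within the immV2 arrays (vertical axis), with points for the leading genes and the main genes of each list, sex-linked ones left out. Slc7a8 lies at -2.43 and -1.07 and Btla at 1.69 and 1.12, and Sox4 at 0.16 and -1.51 has opposite signs.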

How the data were processed

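The authors deposited 1 linear intensity per probe set and array. Per the submitters' processing notes these came from RMA and Affymetrix Power Tools; the sources used here give neither a version nor a genome build. RNA was labelled for whole-transcript arrays, per the labels' protocols. Intensities ran from 6.16 to 23800, and log2 was taken before testing. The array has 24922 probe sets. The platform annotation names 1 gene for 21425 of them, several for 1399 and lists no entry for 2098; 21347 matched the RefSeq gene table. The brightest probe set stood for each of 921 genes with more than 1, leaving 19752 genes.

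A linear model (lmFit, then eBayes with trend, in limma 3.58.1 under R 4.3.3) had genotype and title style as terms over 7 arrays, with 4 residual degrees of freedom. Two-sided p-values were adjusted over all genes by Benjamini-Hochberg, with a threshold of 0.05. The number of arrays limits the precision.

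The arrays, the 31 gene lists (591 of 642 members measured) and the tests were chosen with earlier results of these data known. Named genes were Sox4, the markers, 12 genes of smallest p in each direction, up to 4 genes of smallest p per list and each list's extremes; sex-linked and receptor V segment genes were left out of the leading genes. Same-numbered arrays were not taken as pairs. Alternatives covered left-out arrays, normalisation, filters, moderation, weights and blocks.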

Additional observations from a re-analysis of the deposited data

Results flagged for a closer look

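In the V2 cKO group of 4 arrays, 96 quantities were searched for an array far from the other 3, and 5 were found. Chance alone gives about 1 in 20 such quantities, which is close to the share found. Sox4 in V2imm cKO 5 was 9.60 on the log2 scale, far above the other cKO arrays. Cysltr1 in immV2 cKO 4 was 8.03 and Il18r1 in the same array was 7.20, both above the others. Cd8b1 in V2imm cKO 5 was 8.84, below the others. The upper quartile of intensity in V2imm cKO 4 was 332.7, below the others.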

How the results depend on the processing

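Over 24 alternatives, 81 of 95 genes kept their direction in all and 14 did not; of 2262 gene values, 2180 kept both direction and side of the threshold, 52 newly passed and 30 reversed, 16 of them with the array of DP profile put back. Putting it back, over 8 V2 or all 13 arrays, gave Etv5 0.49, Cd4 -1.25, Cd8a -1.14, Gzma 0.32, Itgae 0.56, Usp18 0.04, Fas -0.30 and Cd8b1 -0.47. That array was left out on Cd4, Cd8a and Rag1, so the change of these genes on putting it back was fixed in advance. They are among the 95 genes counted, and Cd4 and Cd8a are among the reversals. The V2imm arrays alone gave Sox4 0.16, Cd4 -0.028, Pparg -0.24 and Mir181b-2 0.49, and the immV2 arrays alone Rag1 0.011, Itgae 0.28 and Mir181c -0.045. With high Xist as a covariate Xist was -0.032. That fit gave the same differences as the fit without V2imm WT 4, and the fixed replicate block below gave those of the fit without immV2 cKO 4. Fits with no intensity trend, with robust moderation or over brighter genes could not change a difference. The counts of kept directions above therefore include repeats. Leaving out 1 array in turn, the number of genes called ran from 0 to 42 and that of the interaction from 0 to 812. The lowest and highest values in those fits were -1.06 and 0.16 for Sox4, -0.028 and 0.215 for Cd4, -0.24 and 1.04 for Pparg, -0.90 and 0.49 for Mir181b-2, -0.061 and 0.419 for Mir181c, and -0.032 and 3.17 for Xist. Of 744 list medians 106 moved by more than the arrays' spread. Medians of 21 of 31 lists had both signs over the fits without 1 array, and 12 turned sign over the 8 arrays as labelled.

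With a fixed replicate block (1 term for each replicate number in a title style) limma called 33 genes (13 higher, 20 lower). Maf, Sox13 and Blk were among them and Etv5 was not. The array immV2 cKO 4 shares its number with no WT array of that style in the fit, so it had no part in those differences. Residuals of same-numbered arrays correlated at -0.504, -0.354 and -0.223. The fit itself makes such residuals tend negative even for unrelated arrays, so they cannot show whether arrays were paired. Deviations from the mean of each genotype correlated at -0.222 within V2imm, a single value since each genotype there has 2 arrays. For immV2, with 1 WT array, there is no such value. The numbers were not taken as pairs. A crossed replicate block, added after seeing the data, called 0 (limma, smallest adjusted p 0.231, and 745 genes with an unadjusted p under 0.05). Apart from these and from the fits without V2imm cKO 4 (27 called) or V2imm cKO 5 (42), the alternatives called 0, among them quantile normalisation, median centring, the brighter 9876 genes, log2 of the value plus 16, array weights and 11 arrays with DP arrays sharing the spread (smallest adjusted p 0.0572). The causes were not tested.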
